A study of Mus musculus with 11 samples.

Results

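The NMDA and kainate receptor subunit genes Grin1, Grin2a, Grin2b, Grin2c, Grin2d, Grin3a, Grik1, Grik2, Grik3 and Grik5 were followed across 3 types of embryonic mouse motor neuron. They were taken by symbol from the array's platform annotation, with every probe set that carried a member's symbol and no other. Of the 10 genes, 9 were measured, by 18 probe sets, among 18193 genes on the array, and Grin1, the obligate NMDA subunit, was not analysed here because no probe set carried its symbol alone. The probe set with the highest mean over all arrays stands for its gene, so 9 probe sets represent the genes and 9 others are given beside them.

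The series screened for determinants of phrenic motor neuron identity, with 1 Affymetrix array per sample and 11 arrays in all. All groups came from C57/BL6 embryos that carried the Hb9::GFP reporter, a transgene that labels motor neurons green, and the labels do not give the embryonic day. The 4 phrenic samples held motor neurons that innervate the diaphragm, filled backwards with rhodamine-coupled dextran through the phrenic nerve. The 3 LMC radial samples held lateral motor column neurons, filled in the same way through the radial nerve of the forelimb. The 4 C3-C5 GFP-only samples held reporter-positive neurons of segments C3 to C5 with no dextran named in their titles; their titles speak of a segment and their descriptions of a rhombomere, a unit of the hindbrain, and the grouping follows the titles. Cells of all 3 types were sorted by fluorescence from dissociated spinal cord. The C3-C5 cells are not 1 motor pool, the segments of the radial cells are not named, and no label ties replicates to separate embryos, so p-values cover only the spread among these arrays, which may be technical.

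Ionotropic glutamate receptors are tetrameric cation channels that open when glutamate binds. NMDA receptors pair GluN1, encoded by Grin1, with GluN2 (Grin2a to Grin2d) or GluN3 subunits, and the GluN2 subunit sets how strongly magnesium blocks the channel and how slowly it closes. Kainate receptors form from GluK1 to GluK3 (Grik1 to Grik3), alone or together with the high-affinity subunits GluK4 and GluK5 (Grik5), and act on both sides of the synapse. Spinal motor neurons receive glutamatergic drive from premotor interneurons and sensory fibres, and phrenic motor neurons receive it from the respiratory centres of the brainstem.

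Values are log2 probe set intensities, so a difference of 1 is a 2-fold difference, and levels are compared between cell types for 1 probe set, never between probe sets. Array medians lay between 4.48 and 4.63, and a level of 5 was used as a floor: a fold against a type whose mean lay under it is given as at least that of the brighter mean over the floor. Motor neuron identity was checked on 8 markers. Every one was measured. Prph ranged from 11.35 to 12.03 and Ret from 11.23 to 11.73 over all arrays, Isl1 from 8.26 to 12.43 and Mnx1, the gene behind the Hb9 reporter, from 8.06 to 9.24, Slc18a3 from 7.49 to 8.68 and Isl2 from 6.21 to 7.85, while the transmitter genes Chat (4.74 to 6.09) and Slc5a7 (3.87 to 5.81) lay close to the floor. Of these, 3 passed between types: LMC radial cells had 6.46-fold less Isl1 and 1.82-fold less Mnx1 than phrenic cells, 5.12-fold less Isl1 and 1.91-fold less Mnx1 than C3-C5 cells, and Isl2 was 1.99-fold higher in C3-C5 than in phrenic and 2.07-fold higher than in LMC radial cells. The mean of 10 mesenchyme and cartilage markers differed between types. It ran from 5.37 to 7.19 on phrenic arrays, from 4.52 to 4.83 on C3-C5 arrays and from 5.01 to 6.22 on LMC radial arrays, and 2 of the 10, Fn1 and Postn, passed as higher in phrenic than in C3-C5 cells. The mean of 7 interneuron markers ran from 3.95 to 5.15 on phrenic, 3.71 to 3.98 on C3-C5 and 3.89 to 4.24 on LMC radial arrays, and that of 6 neural progenitor markers from 5.75 to 7.14, 5.44 to 5.71 and 5.67 to 6.14. None of either list passed in limma, with 2 interneuron genes (Gad1 and Gad2) and 1 progenitor gene (Sox2) higher in phrenic than in C3-C5 cells at an unadjusted p under 0.05. Gad1 (1.62) and Gad2 (1.20) were likewise higher in phrenic than in LMC radial cells, and Olig2, below the floor, was lower. The mean of 5 oligodendrocyte or astrocyte markers ran from 4.93 to 6.02, 4.96 to 5.07 and 5.22 to 5.67 in the same order. Of these, only Slc1a3 passed, as higher in phrenic than in C3-C5 cells. Of 3 sensory neuron markers, Pou4f1 averaged 9.43, 9.24 and 9.12, and 2 lay below the floor on every array. The part of these other cell types in the subunit differences was not tested beyond a fit with the mesenchyme mean as a covariate. RNA quality, read from how far the 3′ control probe set of Actb exceeded its 5′ one, gave 1.05 to 2.15 on phrenic, 1.07 to 1.98 on C3-C5 and 1.01 to 1.12 on LMC radial arrays. The 25th percentile was lower on 4 arrays, replicates 2 and 3 of both the phrenic and the C3-C5 type (3.18 to 3.2), than on the other 7 (3.26 to 3.38). In sorted bulk samples, fewer cells that express a gene and less RNA per cell cannot be told apart.

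The differences named here passed the threshold, and the share of all probe sets that passed in each comparison is given below. Phrenic motor neurons had the highest Grik1, and more Grin2b than LMC radial cells. C3-C5 GFP-only neurons had the highest Grin2c, at least 2.81-fold above either other type, and 3.96-fold more Grin2d than LMC radial cells. LMC radial neurons had 2.41-fold more Grik2 than C3-C5 cells and 1.69-fold more Grik3 than phrenic cells. Both of these calls were lost when some single arrays were left out. Grin2a, Grin3a and Grik5 passed in no comparison.

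The tests were limma's moderated tests in 1 fit of all 11 arrays, with p-values adjusted over 45037 probe sets by Benjamini-Hochberg, and a member passed at an adjusted p under 0.05. Between phrenic and LMC radial cells 4 of 9 members passed, Grin2b and Grik1 as higher and Grin2c and Grik3 as lower in phrenic cells, where 6.61% of all probe sets passed (3.48% higher and 3.14% lower). Between phrenic and C3-C5 cells 2 of 9 passed, Grik1 as higher and Grin2c as lower in phrenic cells, against 1.96% of all probe sets (0.973% higher and 0.986% lower). Between LMC radial and C3-C5 cells 3 of 9 passed, Grik2 as higher and Grin2c and Grin2d as lower in LMC radial cells, against 3.76% of all probe sets (1.88% in either direction). All of these shares lie above their background, but the background counts every probe set, many of them dim, while each member is counted by its brightest. Over all 18 probe sets of the members, 6, 2 and 3 passed in these 3 comparisons. The median absolute difference of the 9 members was 0.76, 0.46 and 0.42 in the same order, and that of all probe sets was 0.21, 0.14 and 0.20.

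**Figure D1:**
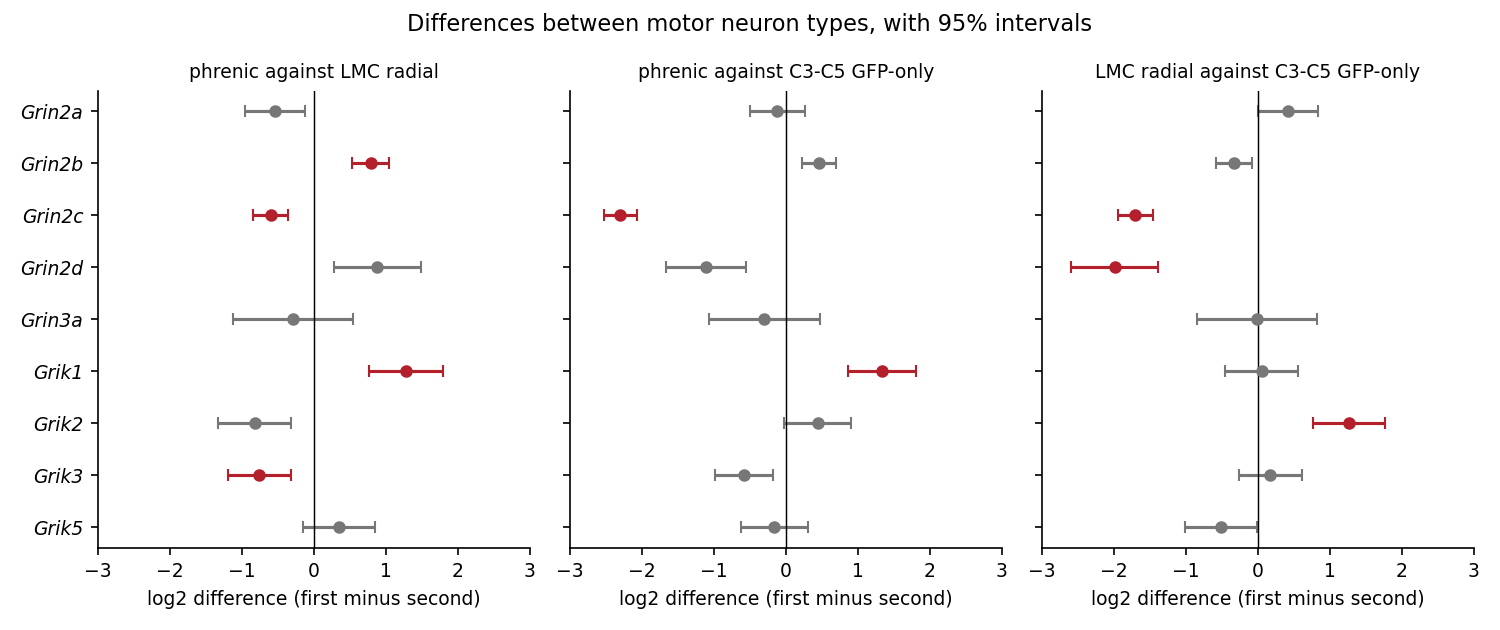
Log2 difference between the means of 2 cell types for each of the 9 measured subunit genes, in 3 panels of 1 comparison each; points are differences, bars are 95% confidence intervals from limma, and red marks an adjusted p under 0.05. The widest differences are those against C3-C5 cells of Grin2c (-2.30 and -1.70) and Grin2d (-1.99), and Grin3a and Grik5 have intervals that reach or lie near 0 in all panels.

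Counted against both other types at once, Grik1 passed as higher in phrenic cells, as 0.704% of all probe sets did, and Grin2c as lower in phrenic cells, as 0.473% did. The Grin2c call as lower in phrenic cells rests on a difference from LMC radial cells in which both means, 4.19 and 4.79, lie below the floor. That call was lost with values raised to 5 and with trend and robust fitting (limma, adjusted p = 0.0587). It was also lost within the 7 arrays of the higher 25th percentile (adjusted p = 0.0888). Grin2c also passed as higher in C3-C5 cells against each of the other types, which 0.244% of all probe sets did. No member passed in this way as lower in C3-C5 cells (0.0178% of all probe sets) or as higher or lower in LMC radial cells (1.49% and 1.06%).

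Grin2c and Grin2d encode the GluN2C and GluN2D subunits, which give NMDA receptors weaker magnesium block than GluN2A or GluN2B, and both were highest in C3-C5 cells. Sequences from RefSeq's promoter entries for them are shown because these 2 genes carry the largest differences in the set. The 250 bases before the transcript start that the entry uses (build GRCm38.p6, both on the minus strand) lie at chr11:115267244-115267493 for Grin2c and chr7:45866682-45866931 for Grin2d. Neither start is the outer end of the gene in RefSeq's gene table: the Grin2d stretch lies wholly inside the annotated gene, and the 3′ end of the Grin2c stretch overlaps it. They are written 5′ to 3′, with each GGGCGG hexamer, the core of the GC box that Sp1-family factors bind, in capitals.
Grin2c: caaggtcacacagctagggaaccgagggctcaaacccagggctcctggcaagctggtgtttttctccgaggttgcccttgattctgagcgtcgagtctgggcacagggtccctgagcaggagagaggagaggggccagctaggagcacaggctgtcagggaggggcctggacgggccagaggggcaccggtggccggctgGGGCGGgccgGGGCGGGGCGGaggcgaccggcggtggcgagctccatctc
Grin2d: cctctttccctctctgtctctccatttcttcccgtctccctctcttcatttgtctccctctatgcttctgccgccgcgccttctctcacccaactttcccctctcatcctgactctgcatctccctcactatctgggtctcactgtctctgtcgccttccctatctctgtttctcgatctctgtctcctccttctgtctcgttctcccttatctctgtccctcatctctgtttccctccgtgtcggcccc
The Grin2c stretch holds 3 such hexamers on the printed strand, the last pair overlapping by 1 base, and its GC content is 68.8%. The Grin2d stretch holds none on either strand and has a GC content of 54.4%, with long runs of pyrimidines. Of the 32851 promoter entries of the table, 32.7% hold GGGCGG on either strand in the same window of 250 bases. The homeodomain core TAATTA, searched in the same way, is in neither stretch and in 4.84% of all entries. These matches describe the letters of the windows only, and RefSeq entries were found for 6 of the 10 genes.

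Grin2c measured 4.17, 4.24, 4.2 and 4.17 on the phrenic arrays, 6.47, 6.59, 6.62 and 6.28 on the C3-C5 arrays, and 4.73, 4.71 and 4.94 on the LMC radial arrays. All 4 C3-C5 arrays stood well above the floor, all other arrays lay under it, and no type overlapped another. The phrenic mean was 2.30 ± 0.10 (SE) log2 units below that of C3-C5 cells (limma, adjusted p = 4.15e-06) and the LMC radial mean 1.70 ± 0.11 below it (adjusted p = 4e-05), both at least 2.81-fold. Both differences passed in every alternative processing and without any 1 array. Within the 7 arrays of the higher 25th percentile they were -2.21 (adjusted p = 0.0106) and -1.58 (adjusted p = 0.0217), and within the other 4 arrays the phrenic difference was -2.39 (adjusted p = 0.0239). With the mesenchyme marker mean as a covariate they were -2.20 and -1.64, and with the Actb difference -2.33 and -1.62. Phrenic cells also lay 0.60 ± 0.11 below LMC radial cells (adjusted p = 0.00984), but both means were under the floor, and with values raised to 5 nothing of this difference is left.

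Grin2d measured 7.31, 6.65, 6.41 and 6.98 in phrenic cells, 8.38, 7.99, 8.05 and 7.35 in C3-C5 cells, and 6.38, 5.74 and 5.76 in LMC radial cells. The order was C3-C5, phrenic, LMC radial, with no overlap between types, although the lowest C3-C5 array and the highest phrenic array differed by little. LMC radial cells lay 1.99 ± 0.27 below C3-C5 cells (adjusted p = 0.00362), a 3.96-fold difference. The phrenic mean of 6.84 ± 0.39 (SD, n = 4) stood between its neighbours, and neither step passed: it was 1.11 ± 0.25 (SE) below C3-C5 cells (adjusted p = 0.056) and 0.88 ± 0.27 above LMC radial cells (adjusted p = 0.087). With the replicate number as a block, the step between phrenic and C3-C5 cells passed with all 3 types in the fit (adjusted p = 0.0308) and did not with the phrenic and C3-C5 arrays alone (adjusted p = 0.116). In limma that step also passed without dim probe sets (adjusted p = 0.0359), with trend and robust fitting (0.0451) and with array weights (0.0277). The same held without phrenic replicate 1 (0.0431) or without C3-C5 replicate 4 (0.0303), and it did not pass in the remaining alternatives. Within the 7 arrays of the higher 25th percentile the difference between LMC radial and C3-C5 cells was -1.91 and did not pass (adjusted p = 0.13). A second Grin2d probe set stayed between 3.5 and 4.15 on every array.

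Grin2b encodes GluN2B, the GluN2 subunit typical of embryonic neurons, with slow closing and strong magnesium block. It measured 10.46, 10.23, 10.39 and 10.25 in phrenic cells, 10.06, 9.88, 9.89 and 9.66 in C3-C5 cells, and 9.57, 9.55 and 9.51 in LMC radial cells. Every phrenic array was above every C3-C5 array, and every C3-C5 array above every LMC radial array. Phrenic cells exceeded LMC radial cells by 0.79 ± 0.12 (adjusted p = 0.00256), which is 1.73-fold. The smaller steps did not pass, 0.46 ± 0.11 from C3-C5 to phrenic cells (adjusted p = 0.06) and -0.33 ± 0.12 from C3-C5 to LMC radial cells (adjusted p = 0.145). In limma the step to phrenic cells passed without dim probe sets (adjusted p = 0.0483) and with trend and robust fitting (0.0349). The step to LMC radial cells passed with array weights (limma, adjusted p = 0.0414).

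A second Grin2b probe set gave 0.88 ± 0.21 between phrenic and LMC radial cells and passed (adjusted p = 0.0336). There, however, phrenic and C3-C5 cells overlapped, with means of 9.41 and 9.32, and the 95% interval of their difference ran from -0.34 to 0.53. The other Grin2b probe sets stayed under the floor, and in the mean over all 4 probe sets the difference between phrenic and LMC radial cells was 0.49 and did not pass. Within the 7 arrays of the higher 25th percentile it was 0.81 (adjusted p = 0.0698).

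Grin2a, whose GluN2A subunit becomes abundant after birth, lay below the floor on every array, from 2.68 to 3.81. Its differences are therefore between background values, and the phrenic and LMC radial arrays, which did not overlap, differed by -0.54 ± 0.19 (adjusted p = 0.121). Grin3a encodes GluN3A, which lowers the calcium permeability of NMDA receptors and is prominent in the developing nervous system. It lay around the floor, where phrenic cells averaged 4.88 ± 0.69 (SD, n = 4), C3-C5 cells 5.18 ± 0.45 (n = 4) and LMC radial cells 5.16 ± 0.49 (n = 3), and all types overlapped. The interval of the difference between phrenic and LMC radial cells ran from -1.12 to 0.55, which takes in a 2-fold lower level, as does that between phrenic and C3-C5 cells (-1.07 to 0.47). Between LMC radial and C3-C5 cells it ran from -0.85 to 0.82. Of the 9 probe sets that do not represent a gene, 6 stayed below the floor on every array (2.44 to 4.66), among them 2 of Grin3a.

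**Figure D2:**
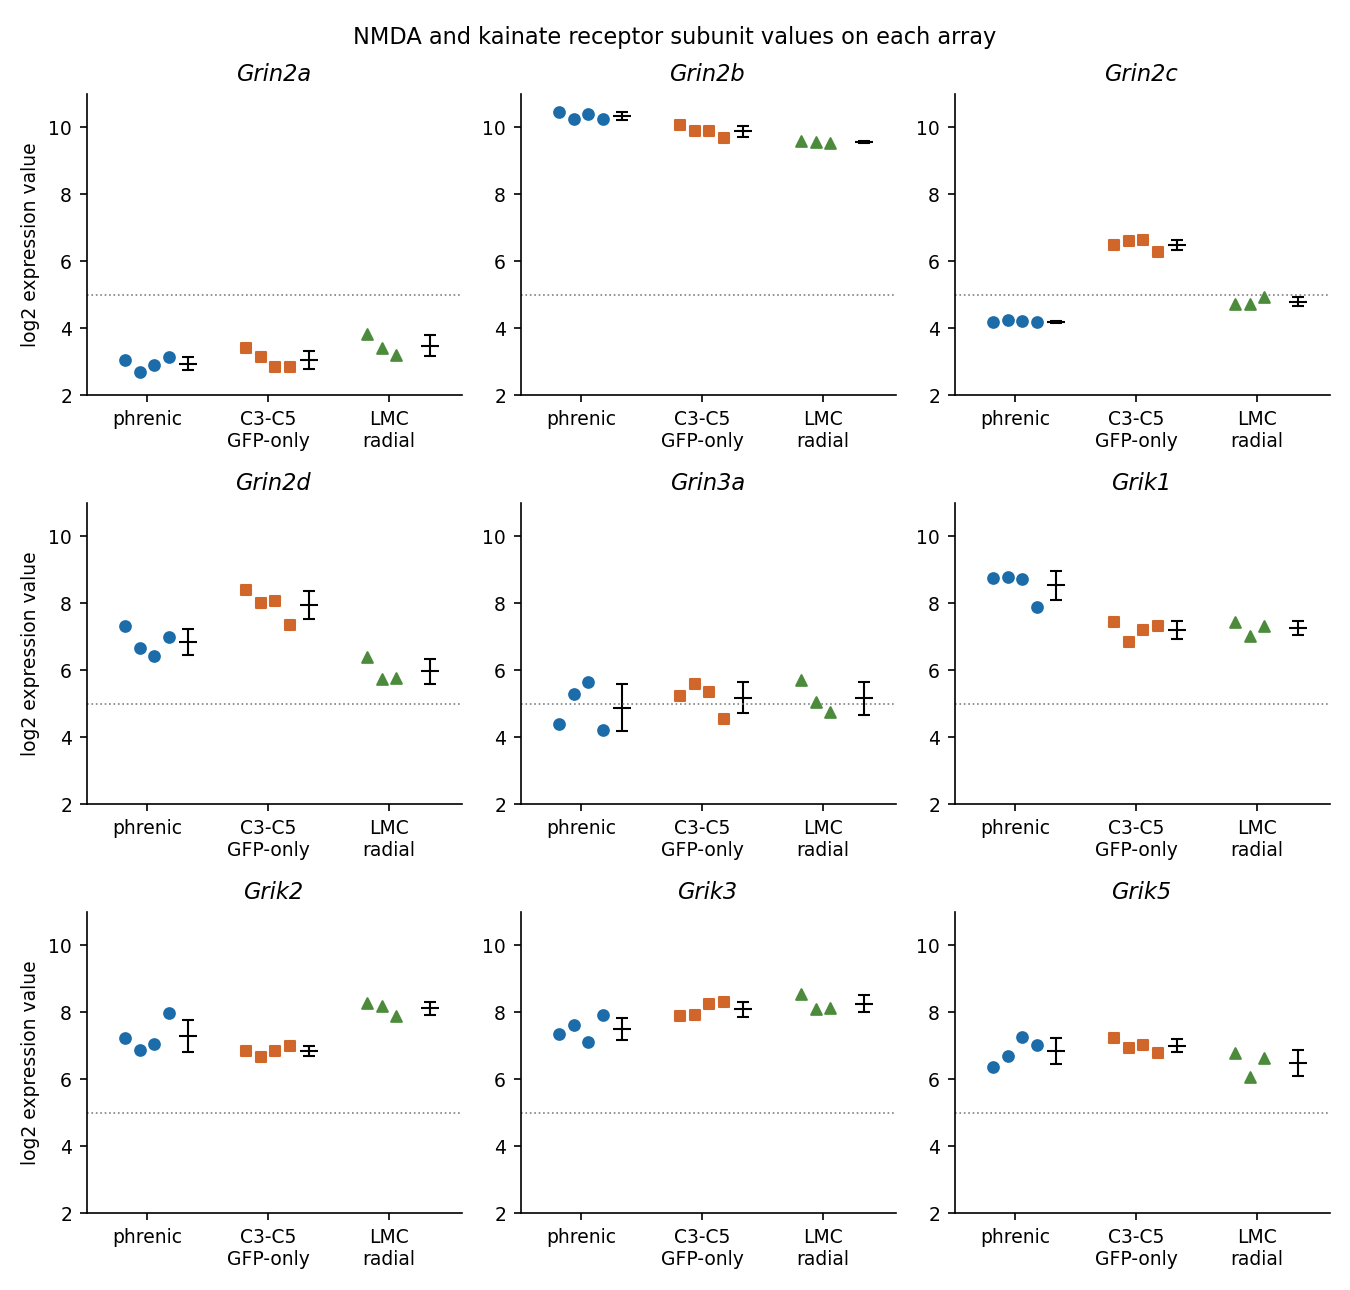
Log2 value of each measured subunit gene on each array, 1 panel per gene and 1 column of points per cell type (4 arrays each for phrenic and C3-C5, 3 for LMC radial); the black mark beside each column is the mean with whiskers of 1 SD, and the dotted line is the floor of 5. Grin2c lies above the floor in C3-C5 cells only, Grik1 is highest in phrenic cells with 1 array at 7.89, and for Grik2 the LMC radial arrays are high, with 1 phrenic array at 7.98 among them.

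Among kainate receptor genes, Grik1 encodes GluK1, a subunit that forms functional channels on its own. It measured 8.76, 8.78, 8.71 and 7.89 in phrenic cells, 7.44, 6.83, 7.21 and 7.32 in C3-C5 cells, and 7.44, 7.02 and 7.31 in LMC radial cells. All phrenic arrays were above all others, with replicate 4 well below the other phrenic arrays, while C3-C5 and LMC radial cells overlapped. Phrenic cells exceeded LMC radial cells by 1.28 ± 0.23 (2.43-fold, adjusted p = 0.00795) and C3-C5 cells by 1.33 ± 0.21 (2.52-fold, adjusted p = 0.00892). LMC radial and C3-C5 cells differed by 0.05 ± 0.23, with a 95% interval from -0.46 to 0.56.

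Phrenic replicate 4, the lowest phrenic array for Grik1, had the highest mesenchyme marker mean of all arrays, 7.19. Without it the Grik1 differences were 1.5 (adjusted p = 0.000469) and 1.55 (adjusted p = 0.000541). With the marker mean as a covariate they were 1.54 and 1.98, and with the Actb difference 1.54 and 1.41, and all of these passed. The phrenic against C3-C5 difference did not pass with a replicate block over only these 8 arrays (1.33, adjusted p = 0.0888), within the 7 arrays of the higher 25th percentile (0.94, adjusted p = 0.293), or within the other 4 (1.73, adjusted p = 0.0594). Within those 7 arrays the difference from LMC radial cells was 1.07 (adjusted p = 0.124).

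The second Grik1 probe set measured 6.85, 6.85, 6.61 and 5.59 in phrenic cells, 5.72, 5.69, 5.86 and 5.38 in C3-C5 cells, and 4.72, 5.16 and 5.03 in LMC radial cells. Here phrenic replicate 4 fell among the C3-C5 arrays, and the LMC radial arrays were the lowest. The difference between phrenic and LMC radial cells passed (1.5 ± 0.28, adjusted p = 0.00915), and that between phrenic and C3-C5 cells did not (0.82 ± 0.26, adjusted p = 0.168). The probe sets thus shared the direction against both types but not the call against C3-C5 cells.

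Grik2 encodes GluK2, a principal kainate receptor subunit that also assembles with GluK5. It measured 7.23, 6.87, 7.06 and 7.98 in phrenic cells, 6.84, 6.66, 6.85 and 7.0 in C3-C5 cells, and 8.27, 8.17 and 7.88 in LMC radial cells. LMC radial arrays were above all C3-C5 arrays, and phrenic replicate 4 lay among them. LMC radial cells exceeded C3-C5 cells by 1.27 ± 0.23 (2.41-fold, adjusted p = 0.0136). This call was lost without LMC radial replicate 1 (1.19, adjusted p = 0.0605) or replicate 2 (1.24, adjusted p = 0.0558), and with the mesenchyme marker mean (0.85, adjusted p = 0.111) or the Actb difference (1.25, adjusted p = 0.0653) as a covariate. It was also lost with values raised to 5 (adjusted p = 0.0703) and within the 7 arrays of the higher 25th percentile (1.19, adjusted p = 0.162).

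Phrenic cells were 0.82 ± 0.23 below LMC radial cells in Grik2, which did not pass (adjusted p = 0.0577), and 0.45 ± 0.21 above C3-C5 cells (adjusted p = 0.409). Without phrenic replicate 4 the difference from LMC radial cells was -1.05 and passed (adjusted p = 0.00182). In limma it also passed with median centring (adjusted p = 0.0471), without dim probe sets (0.049) and with array weights (0.00724). The same held with the replicate block (0.0174), the mesenchyme covariate (0.0112) and the mean of both probe sets (0.008). In the remaining alternatives it did not pass. A second, dimmer Grik2 probe set was also highest on average in LMC radial cells (5.68, 5.89 and 5.80) and 0.83 ± 0.33 above C3-C5 cells, which did not pass (adjusted p = 0.199). On that probe set phrenic replicate 4 was the lowest phrenic array (4.22) and replicate 3 the highest (6.05).

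**Figure D3:**
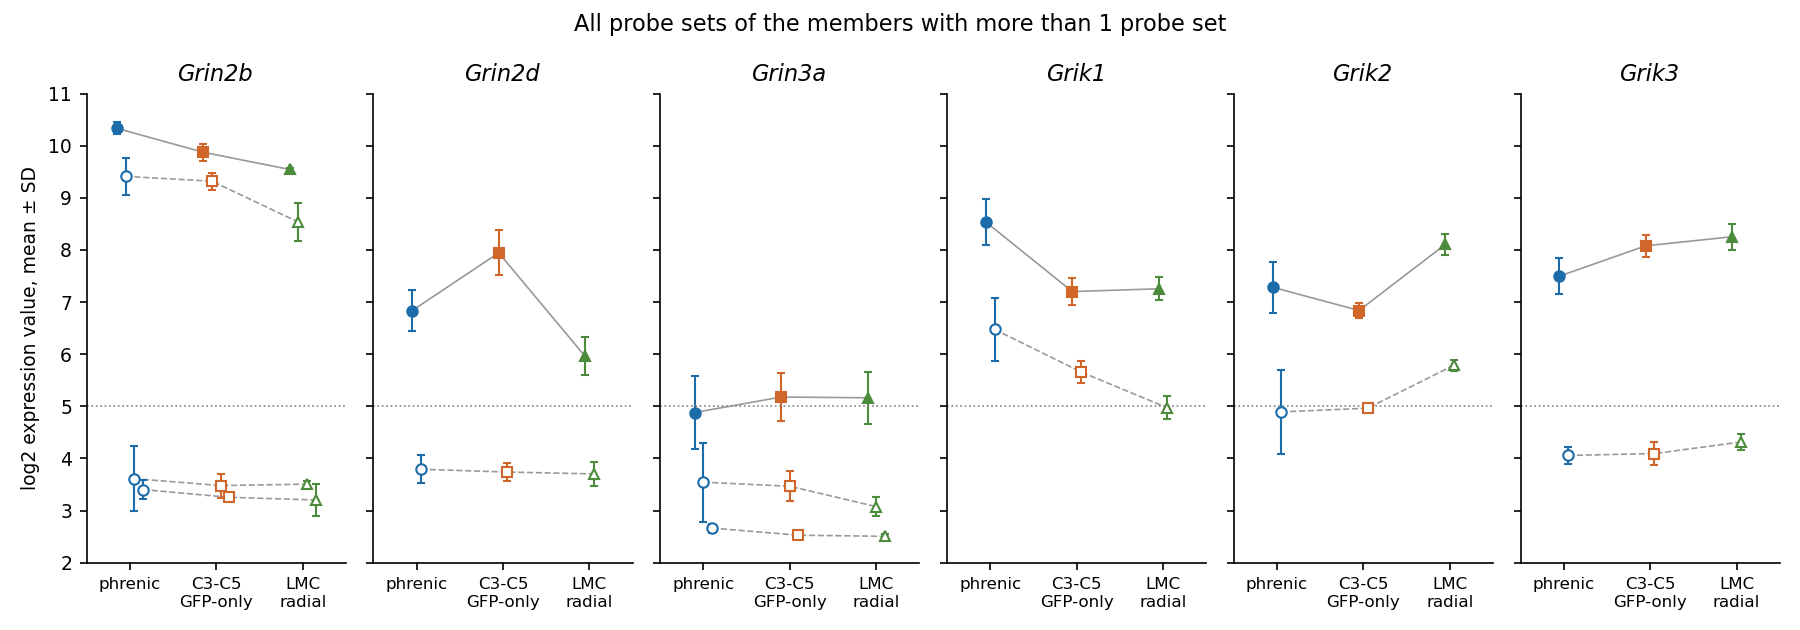
Mean log2 value of every probe set in each cell type, for the 6 subunit genes with more than 1 probe set; filled symbols with solid lines are the probe set that represents the gene, open symbols with dashed lines the others, whiskers are 1 SD over 4 phrenic, 4 C3-C5 or 3 LMC radial arrays, and the dotted line is the floor of 5. The second probe sets of Grin2b and Grik1 are highest in phrenic and lowest in LMC radial cells (9.41 and 8.53, 6.48 and 4.97), that of Grik2 is highest in LMC radial cells at 5.79, and those of Grin2d, Grin3a and Grik3 lie below the floor.

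Grik3 encodes GluK3, a subunit with low glutamate sensitivity. It measured 7.36, 7.60, 7.12 and 7.91 in phrenic cells, 7.89, 7.90, 8.25 and 8.29 in C3-C5 cells, and 8.54, 8.10 and 8.12 in LMC radial cells. Phrenic arrays were below all LMC radial arrays but overlapped the C3-C5 arrays, where the highest phrenic value was 7.91. Phrenic cells were 0.76 ± 0.20 below LMC radial cells (1.69-fold, adjusted p = 0.0466). That call sits close to the threshold and held in only 1 of the 11 fits that each left out 1 array, with differences between -0.89 and -0.61. It was also lost in 6 of 12 other settings: with the Actb difference (-0.72, adjusted p = 0.219) or the mesenchyme mean (-0.81, adjusted p = 0.0786) as a covariate, with values raised to 5, as the mean of its probe sets (-0.51), with only these types in the fit, and within the 7 arrays of the higher 25th percentile. The differences from C3-C5 cells were -0.58 ± 0.18 for phrenic (adjusted p = 0.169) and 0.17 ± 0.20 for LMC radial cells (adjusted p = 0.668).

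Grik5 encodes GluK5, the high-affinity subunit that needs a GluK1 to GluK3 partner to form a channel. Phrenic cells averaged 6.83 ± 0.39 (SD, n = 4), C3-C5 cells 6.99 ± 0.19 (n = 4) and LMC radial cells 6.48 ± 0.38 (n = 3), and the arrays of all types overlapped within 6.05 to 7.26. The widest step was -0.51 ± 0.23 between LMC radial and C3-C5 cells (adjusted p = 0.244), with a 95% interval from -1.01 to -0.01.

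Grin2c and Grin2d had the smallest p over all 3 types among the members. The genes most like them were sought among the 10424 other genes whose mean over all arrays was at least the floor of 5. Likeness was measured by the root mean square difference of values centred on each gene's mean, over the 11 arrays. Closest to Grin2c was Rasgef1c, a Ras exchange factor gene, at 0.23 log2 units, with means of 7.32 in C3-C5, 5.21 in phrenic and 5.63 in LMC radial cells. Bcl11a, a zinc finger transcription factor gene, followed at 0.36, Adgrb2, an adhesion G protein-coupled receptor gene, at 0.38 and Chodl, a C-type lectin gene, at 0.40, where the median over the genes compared was 1.03. Closest to Grin2d were Syndig1, which encodes a synaptic membrane protein, at 0.35, the synaptotagmin gene Syt13 at 0.38, the microtubule-binding protein gene Eml1 at 0.40 and the atypical cadherin gene Fat3 at 0.42, with a median of 0.88. All 8 had their highest mean in C3-C5 cells, as Grin2c and Grin2d do, which follows from how they were picked. All were read on the same 11 arrays, and the likeness is a description.

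**Figure D4:**
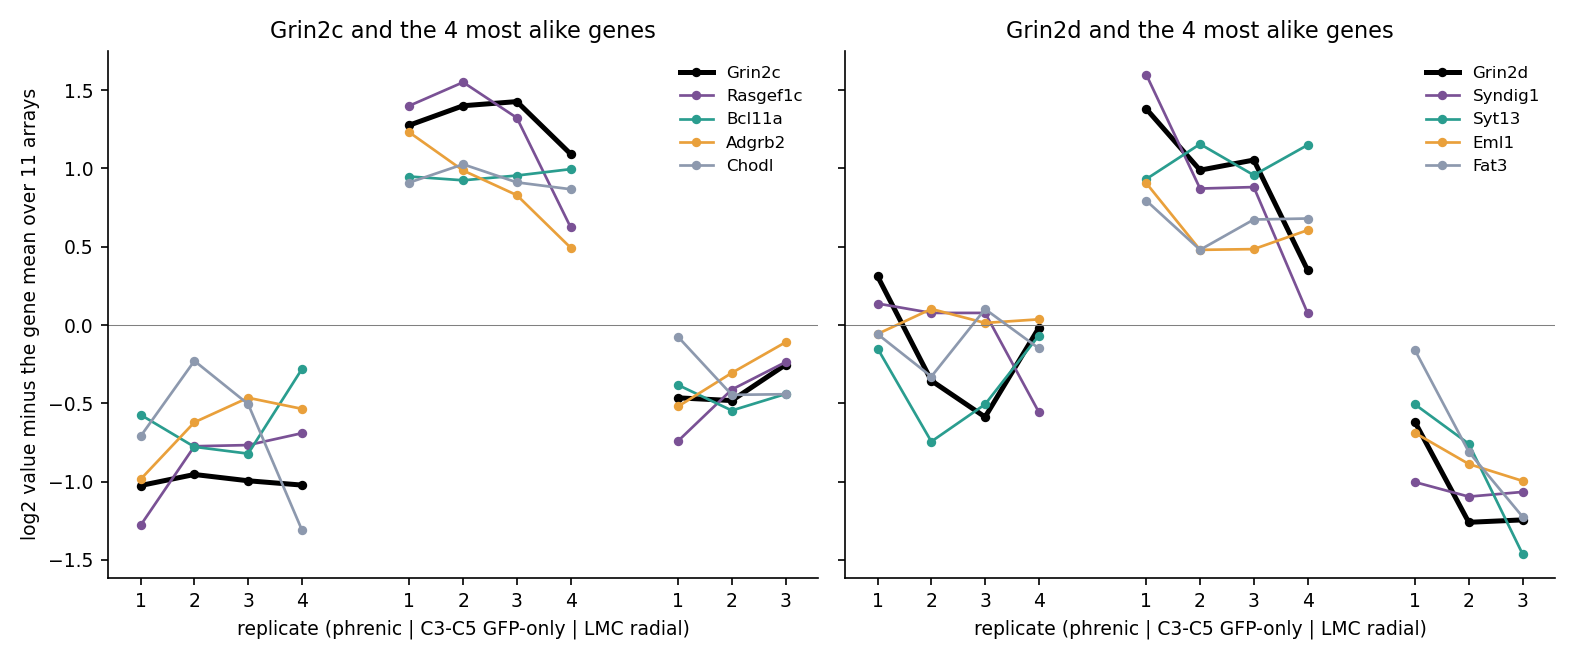
Values centred on each gene's own mean over the 11 arrays, in log2 units, for Grin2c (left) and Grin2d (right) in black and the 4 genes closest to each in colour, with arrays ordered by cell type. The lines of Grin2c and Rasgef1c differ by 0.23 (root mean square) and both are highest on the 4 C3-C5 arrays.

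Other glutamate genes were counted from a list of 51, of which 44 were measured: 3 further ionotropic subunits, 26 receptor partners, 4 genes of co-agonist supply, 5 transporters and 6 metabotropic receptors. Between phrenic and LMC radial cells 10 of the 44 were higher and 6 lower in phrenic cells at an unadjusted p under 0.05 in limma. The share of all probe sets at that looser threshold is not given here. Past the adjusted threshold 4 were higher in phrenic cells and 0 lower, where 3.48% and 3.14% of all probe sets passed in these directions. These were the metabotropic receptor gene Grm7 (2.29 ± 0.41, 4.90-fold, adjusted p = 0.00765), the kinase gene Camk2d (1.57 ± 0.33, 2.98-fold, adjusted p = 0.0171), and the scaffold genes Grip1 (0.61 ± 0.14, adjusted p = 0.0314) and Homer1 (0.48 ± 0.10, adjusted p = 0.0193). Grm7 measured 9.63, 9.14, 8.65 and 7.70 on phrenic arrays and 6.39, 6.42 and 6.65 on LMC radial arrays, so its lowest phrenic value, like that of Grik1, was in replicate 4. Homer1 and Grip1 were named in this comparison after their values were seen, since they complete the count. In the opposite direction the scaffold gene Dlg1 was at -0.52 ± 0.14 (adjusted p = 0.0525) and the metabotropic receptor gene Grm8, below the floor in both types, at -0.63 ± 0.23 (adjusted p = 0.143).

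Between phrenic and C3-C5 cells 1 of the 44 passed as higher in phrenic cells and 0 as lower, beside 0.973% and 0.986% of all probe sets. The gene that passed was the glutamate transporter gene Slc1a3 (1.73 ± 0.38, at least 3.01-fold, limma, adjusted p = 0.045). At an unadjusted p under 0.05, 7 were higher and 2 lower, with no share of all probe sets given at that threshold. Slc1a3 is also a glial marker, and phrenic replicate 4 had its highest value, 7.56, as it had the highest mesenchyme mean. The part of other cell types in its difference was not tested. The metabotropic receptor gene Grm5 had the smallest p in the other direction (-1.89 ± 0.60, adjusted p = 0.171), with phrenic arrays spread from 2.53 to 6.09, and the scaffold gene Dlgap1 was at -0.63 ± 0.27 (adjusted p = 0.354). The glycine transporter gene Slc6a9 was at 0.83 ± 0.20 (adjusted p = 0.0633). Between LMC radial and C3-C5 cells 0 of 44 passed in limma, beside 3.76% of all probe sets. At an unadjusted p under 0.05 in this comparison 6 were higher and 6 lower in LMC radial cells, again with no share of all probe sets given. There the scaffold gene Dlg2 was at 0.86 ± 0.25 (adjusted p = 0.0882) and Slc6a9 at 0.79 ± 0.21 (adjusted p = 0.0689). In the other direction Grip1 was at -0.44 ± 0.14 (adjusted p = 0.123) and, below the floor, Dlgap2 at -0.48 ± 0.13 (adjusted p = 0.061), neither past the threshold. The auxiliary kainate subunit genes Neto1 and Neto2 and the subunit genes Grik4, Grin3b and Grid1 passed in no comparison. The median difference over the 44 genes was 0.09, 0.03 and -0.09 in the 3 comparisons, against -0.01, 0.00 and 0.00 over all probe sets.

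**Figure D5:**
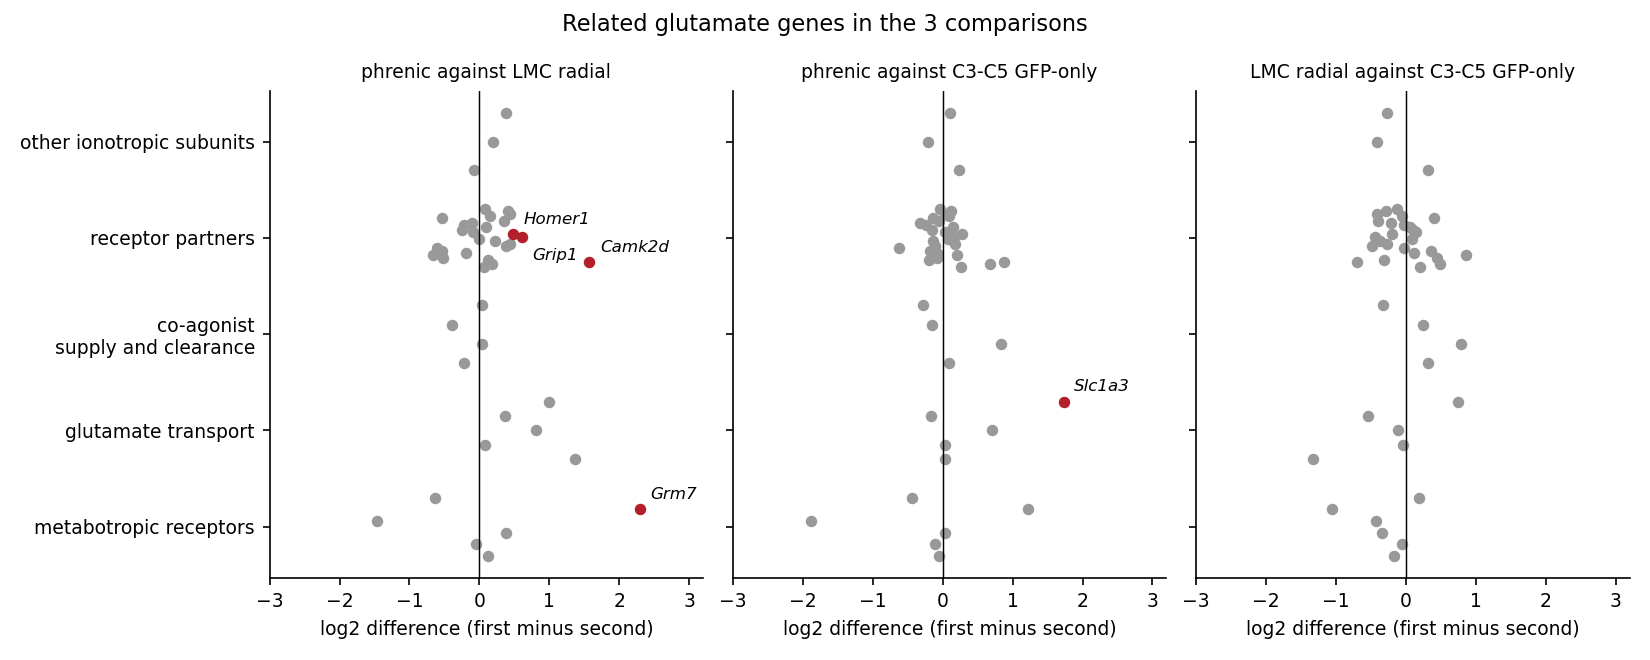
Log2 differences of the 44 other glutamate genes in the 3 comparisons, 1 row per group of the list and 1 point per gene, with genes that passed at an adjusted p under 0.05 in red and named. All 5 red points lie to the right of 0, for phrenic cells against LMC radial cells (Grm7, Camk2d, Grip1 and Homer1) and against C3-C5 cells (Slc1a3).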

How the data were processed

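Values were taken from the deposited table of log2 values, 1 per probe set and array. Per the submitters' processing notes the authors made them with RMA (background correction, quantile normalization and a summary over the probes of a set), and its version is not given in the sources used here. The labels state Trizol extraction and biotin-labelled cRNA from total RNA. Of 45101 probe sets, 64 controls were left out and 45037 tested with no filter on low values. Symbols come from the platform annotation: 34945 probe sets had 1 symbol, 932 several and 9160 none.

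The linear model in limma 3.58.1 (R 4.3.3) had 1 coefficient for each cell type, with 8 residual and 2.92 prior degrees of freedom, two-sided moderated tests and Benjamini-Hochberg adjustment over all probe sets tested, per comparison. The script was tested on simulated data. The number of arrays limits the precision. The members, related genes and markers were chosen with earlier results of these data known. The text names all members, the 2 related genes per comparison and direction with the smallest p, and the 4 genes closest to each of the 2 members with the smallest F-test p. Homer1, which completes the count between phrenic and LMC radial cells, is named beyond this rule. Grip1 is named by the rule between LMC radial and C3-C5 cells, and beyond it between phrenic and LMC radial cells. Neto1, Neto2, Grik4, Grin3b and Grid1, which passed in no comparison, are also named beyond the rule.

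Same-numbered arrays were checked as pairs by the correlation of their deviations from the type means. Phrenic and C3-C5 arrays gave 0.13 to 0.22 in 4 of 4 pairs, but differently numbered pairs ran from -0.25 to 0.28. Only 1 of 11 arrays was closest, among arrays of the other types, to one with its own number. Pairing by number is therefore not established, and the block was run only as an alternative. Pairs with LMC radial arrays did not exceed 0.05. No arrays held identical values.

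Alternatives were quantile normalization, median centring, a floor at 5, leaving out dim probe sets, trend and robust fitting, array weights, a replicate block, means over probe sets, fits of 2 types, arrays by 25th percentile, covariates for the Actb difference and the mesenchyme mean, and leaving out each array. The 2-type block and the fit of the 4 arrays with the lower percentile were chosen after seeing the data.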

Additional observations from a re-analysis of the deposited data

Results flagged for a closer look

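In groups of 4 arrays, the highest or lowest value was set against the others by Dixon's gap test. Of 36 groups tested, 2 had an array past the 95% critical value, and chance gives about 1 in 20 groups. For the representing Grik1 probe set, phrenic replicate 4 was the lowest at 7.89, where the other phrenic arrays lay between 8.71 and 8.78. For a dim Grin2b probe set, phrenic replicate 1 was the highest at 4.54, where the others lay between 3.23 and 3.36, all below the floor of 5.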

How the results depend on the processing

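Of the 9 member results that passed, 7 passed without any 1 array, 2 (Grin2c against C3-C5 cells, from phrenic and from LMC radial cells) passed in every alternative run, and none changed direction. Without 1 array each, the members passing numbered 3 to 5 of 9 between phrenic and LMC radial cells, 2 to 3 between phrenic and C3-C5 cells and 2 to 3 between LMC radial and C3-C5 cells. With values raised to 5 the first comparison gave 2, while the share of all probe sets that passed fell from 6.61% to 2.32%. Within the 7 arrays of the higher 25th percentile the comparisons gave 0 (6 at an unadjusted p under 0.05 in limma), 1 and 1, with fewer arrays and residual degrees of freedom. In the first of these comparisons 1.73% of all probe sets passed. Phrenic against C3-C5 gave 4 without dim probe sets and 4 with trend and robust fitting, each adding Grin2b and Grin2d, and 1 both with the replicate block over the 2 types alone and within the 4 arrays of the lower percentile, where only Grin2c passed. Replicate numbers did not pair LMC radial arrays with the others, and pairing of phrenic with C3-C5 arrays is not established. The block over all 3 types gave 6 between phrenic and LMC radial cells, where 7.85% of all probe sets passed. It added Grin2d (limma, adjusted p = 0.0342) and Grik2 (adjusted p = 0.0174). Between LMC radial and C3-C5 cells the block gave 3. Member counts thus stand beside a share that moves with the setting, and the shares for the other counts are not given here. The cause of these changes was not tested, beyond the fewer arrays or probe sets of some fits. Values near background, as for Grin2a, Grin3a and Grin2c outside C3-C5 cells, bound what a difference can mean.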
